A study of Mus musculus with 8 samples.

Results

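Type I interferon response genes are the genes that cells switch on when they sense interferon beta or interferon alpha. The set examined here held 34 named genes: interferon beta itself (Ifnb1) and 33 genes known to be induced by it. They were listed by symbol, with earlier results of these data known. All 34 were found among the 23284 genes of the deposited count table, and all 34 were among the 15698 genes with enough reads to be tested. Ifnb1 passed that filter through sorted libraries alone, since no whole-tissue library held a read of it.

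The choroid plexus is the vascularised tissue in the brain's ventricles whose epithelial cells secrete cerebrospinal fluid. RNA-seq libraries came from mouse embryos at stage E18.5 and formed 4 groups of 2 biological replicates. The groups were epithelial cells sorted from the hindbrain plexus, epithelial cells sorted from the telencephalic plexus, whole hindbrain plexus and whole telencephalic plexus. Sorted cells were picked by flow cytometry for a red fluorescent reporter labelled Ttr::RFP, named for the transthyretin gene of choroid plexus epithelium, and came from the strain labelled ICR (CD1). The whole tissue came from the strain labelled CD1. The labels give no other allele or treatment and do not say whether embryos were pooled or how the reporter was made. Per the series' design text, hindbrain and telencephalic samples of a replicate came from the same brains. The preparations differ in sorting, reporter and animals together, so these cannot be told apart in any sorted against whole comparison.

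Cells release interferon beta after RNA or DNA sensors such as RIG-I (Ddx58), MDA5 (Ifih1) and Toll-like receptors have been triggered. It binds the receptor chains Ifnar1 and Ifnar2, whose kinases Jak1 and Tyk2 pass the signal on to Stat2. Stat2 and Irf9 belong to a complex that binds the interferon-stimulated response element of target genes, whose products block viral RNA, viral entry and translation. In the choroid plexus, an interferon signature is known from aged mice.

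Library totals ran from 8849053 to 31613434 counts, the smallest being telencephalic whole replicate 2. Levels are given as CPM, read counts scaled to a common library size with edgeR's TMM factors. They are not divided by gene length, so they are compared between libraries and not between genes. The epithelial marker list of 12 genes, which includes Ttr, summed to 172417 and 223701 CPM in hindbrain sorted, 292848 and 269492 CPM in telencephalic sorted, 149779 and 152240 CPM in hindbrain whole and 195912 and 180631 CPM in telencephalic whole libraries. Most of each sum was Ttr, at 158930 and 210599 CPM in hindbrain sorted and 281715 and 256945 CPM in telencephalic sorted libraries. The sums thus match the labelled tissue mainly through that gene, and all 12 markers were read in all 8 libraries. The sorted libraries also held reads of all 15 macrophage markers, and the sums of this and other marker lists are given beside the results they moved with. A group mean difference was called at an adjusted p below 0.05 in the quasi-likelihood test of edgeR, with Benjamini-Hochberg adjusted p-values over all 15698 tested genes. Folds are log2 differences of group means, with their standard errors.

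Promoter windows of 5 genes show the sequence that the interferon-activated complex reads, in genes that behaved differently in these libraries. Each window runs from 250 bases before to 50 bases after the RefSeq start, in GRCm38.p6, read 5′ to 3′ on the gene's strand. Capitals mark every match to the core of the interferon-stimulated response element, spelled GAAA, any 2 bases, then GAAA, on either strand. Ifit1 (chr19:34640639-34640938, plus strand) and Isg15 (chr4:156200769-156201068, minus strand) were among the genes high in 1 sorted replicate number. Ifitm3 (chr7:141010695-141010994, minus strand) differed between regions and preparations and has its matches after the start. Ifnb1 (chr4:88522745-88523044, minus strand) is the ligand gene, and Oasl2 (chr5:114896684-114896983, plus strand) had the smallest adjusted p of the set between regions; neither window holds the core.
Ifnb1: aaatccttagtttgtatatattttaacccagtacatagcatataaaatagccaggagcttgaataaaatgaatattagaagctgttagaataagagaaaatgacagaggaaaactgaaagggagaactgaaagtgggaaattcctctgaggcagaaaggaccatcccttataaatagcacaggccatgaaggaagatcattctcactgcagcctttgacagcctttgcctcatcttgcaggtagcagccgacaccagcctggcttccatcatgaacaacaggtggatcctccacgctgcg
Ifit1: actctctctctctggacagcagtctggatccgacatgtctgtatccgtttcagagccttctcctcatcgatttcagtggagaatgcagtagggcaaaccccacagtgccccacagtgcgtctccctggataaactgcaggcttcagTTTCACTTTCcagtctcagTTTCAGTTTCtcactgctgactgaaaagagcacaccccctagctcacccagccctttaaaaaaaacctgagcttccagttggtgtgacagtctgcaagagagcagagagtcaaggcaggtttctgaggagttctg
Isg15: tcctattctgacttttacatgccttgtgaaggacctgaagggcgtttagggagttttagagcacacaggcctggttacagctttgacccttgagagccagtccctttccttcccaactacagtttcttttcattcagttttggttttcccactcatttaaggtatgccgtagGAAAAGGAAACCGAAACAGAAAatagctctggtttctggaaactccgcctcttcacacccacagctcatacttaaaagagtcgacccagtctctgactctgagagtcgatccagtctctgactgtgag
Ifitm3: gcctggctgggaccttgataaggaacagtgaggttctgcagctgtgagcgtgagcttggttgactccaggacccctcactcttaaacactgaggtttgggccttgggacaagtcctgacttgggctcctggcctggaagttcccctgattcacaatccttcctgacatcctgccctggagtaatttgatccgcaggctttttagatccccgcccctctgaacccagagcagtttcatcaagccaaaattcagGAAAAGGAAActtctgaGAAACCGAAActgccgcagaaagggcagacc
Oasl2: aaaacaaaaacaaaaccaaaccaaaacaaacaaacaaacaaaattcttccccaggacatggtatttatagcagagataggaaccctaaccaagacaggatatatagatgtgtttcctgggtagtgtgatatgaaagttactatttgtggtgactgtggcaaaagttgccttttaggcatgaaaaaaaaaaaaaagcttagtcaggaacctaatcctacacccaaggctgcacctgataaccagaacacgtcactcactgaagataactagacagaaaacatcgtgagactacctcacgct
The first bases of the matches lay at -104 and -85 in Ifit1, at -78, -72 and -66 in Isg15 and at +3 and +20 in Ifitm3, counted from the start. RefSeq windows were found for 27 of the 34 genes, and 14 of these 27 (51.9%) had at least 1 core match, against 3.99% of all 27025 genes with a window. The motif TTCNNNGAA, known as the gamma-activated site and searched on both strands, was found in 8 of the 27 (29.6%), against 9.55% of all genes, and overlapped a core match in 2 of the set's windows. A match describes letters in a window and is not a measured binding site.

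The sorted libraries of replicate 2 stood apart within the set. In both regions, replicate 2 held far more reads of Ifnb1 and of some of the interferon-induced genes than replicate 1. Others differed little, such as Usp18, at 2.00 and 2.24 CPM in hindbrain sorted and 2.04 and 2.05 CPM in telencephalic sorted libraries. Each group has only 2 libraries, so a mean over them rests on both, and counts of calls are given below also without the sorted libraries of that number. Both libraries come from the same brains, so they are 1 source and not independent repeats.

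Reads of interferon beta were found in sorted cells and, at this depth, not in whole tissue. Ifnb1 had 1 and 148 counts in hindbrain sorted libraries, 0 and 30 in telencephalic sorted libraries and 0 in all 4 whole-tissue libraries. These are 0.0364 and 5.43 CPM in hindbrain sorted cells and 0 and 1.86 CPM in telencephalic sorted cells. The high libraries were those of replicate 2, and replicate 1 of either region held at most 1 read. A count of 0 allows up to 3 counts, which is 0.121 and 0.142 CPM in hindbrain whole, 0.183 and 0.314 CPM in telencephalic whole and 0.113 CPM in telencephalic sorted replicate 1. Of 10 other interferon genes, 9 (Ifna1, Ifna2, Ifna4, Ifna5, Ifna11, Ifne, Ifng, Il28b and Ifnz) had no read in any library, and Ifnk had 34 reads over all 8, too few to be tested.

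On the log2(CPM + 0.5) scale, 7 interferon-induced genes exceeded 2-fold, sorted replicate 2 over replicate 1, in both regions, as Ifnb1 did. These were Ifit1, Ifit2, Oasl1, Mx1, Rsad2, Isg15 and Gbp2. They were picked after their values were seen, so their values are given as a description with no test. Ifit3 and Isg20, at low CPM, exceeded 2-fold in both regions only when the 0.5 was not added. In hindbrain sorted cells 10 of the 34 genes, and in telencephalic sorted cells 11, were above 2-fold on the log2(CPM + 0.5) scale. Of all tested genes, 3.11% in hindbrain and 1.27% in telencephalic sorted cells were, and 0.471% in both.

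Ifit1, whose product binds foreign RNA ends, was at 0.945 and 19.3 CPM in hindbrain sorted, 0.907 and 9.98 CPM in telencephalic sorted, 3.63 and 5.05 CPM in hindbrain whole and 2.32 and 2.72 CPM in telencephalic whole libraries. Both sorted replicates 2 lay above every whole-tissue library and both sorted replicates 1 below. Oasl1, an oligoadenylate synthetase-like protein that restrains Irf7 translation in mice, was at 0.255 and 9.90 CPM in hindbrain sorted, 0.0378 and 4.71 CPM in telencephalic sorted, 0.524 and 0.425 CPM in hindbrain whole and 0.306 and 0.105 CPM in telencephalic whole libraries. The same pair of libraries was high, and the other sorted libraries were within or below the whole-tissue range. Rsad2, which encodes viperin, an enzyme that makes a chain-terminating nucleotide, was at 12.4 and 73.0 CPM in hindbrain sorted, 11.1 and 35.6 CPM in telencephalic sorted, 16.8 and 11.1 CPM in hindbrain whole and 14.1 and 7.13 CPM in telencephalic whole libraries. Sorted replicates 2 again held the highest levels of the 8.

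Isg15, a ubiquitin-like protein that is joined to other proteins, was at 1.24 and 7.30 CPM in hindbrain sorted, 1.13 and 5.46 CPM in telencephalic sorted, 0.363 and 1.79 CPM in hindbrain whole and 1.22 and 1.15 CPM in telencephalic whole libraries. Its sorted replicates 1 were within the whole-tissue range. Ifit2, a relative of Ifit1, was at 4.25 and 11.9 CPM in hindbrain sorted, 1.32 and 4.59 CPM in telencephalic sorted, 5.80 and 4.53 CPM in hindbrain whole and 4.65 and 5.34 CPM in telencephalic whole libraries. Gbp2, a guanylate-binding protein that acts on pathogen membranes, was at 1.42 and 7.70 CPM in hindbrain sorted, 0.189 and 2.17 CPM in telencephalic sorted, 2.54 and 2.03 CPM in hindbrain whole and 1.28 and 0.838 CPM in telencephalic whole libraries. For Ifit2 and Gbp2, of the sorted libraries, hindbrain replicate 2 alone exceeded all whole-tissue libraries.

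**Figure D1:**
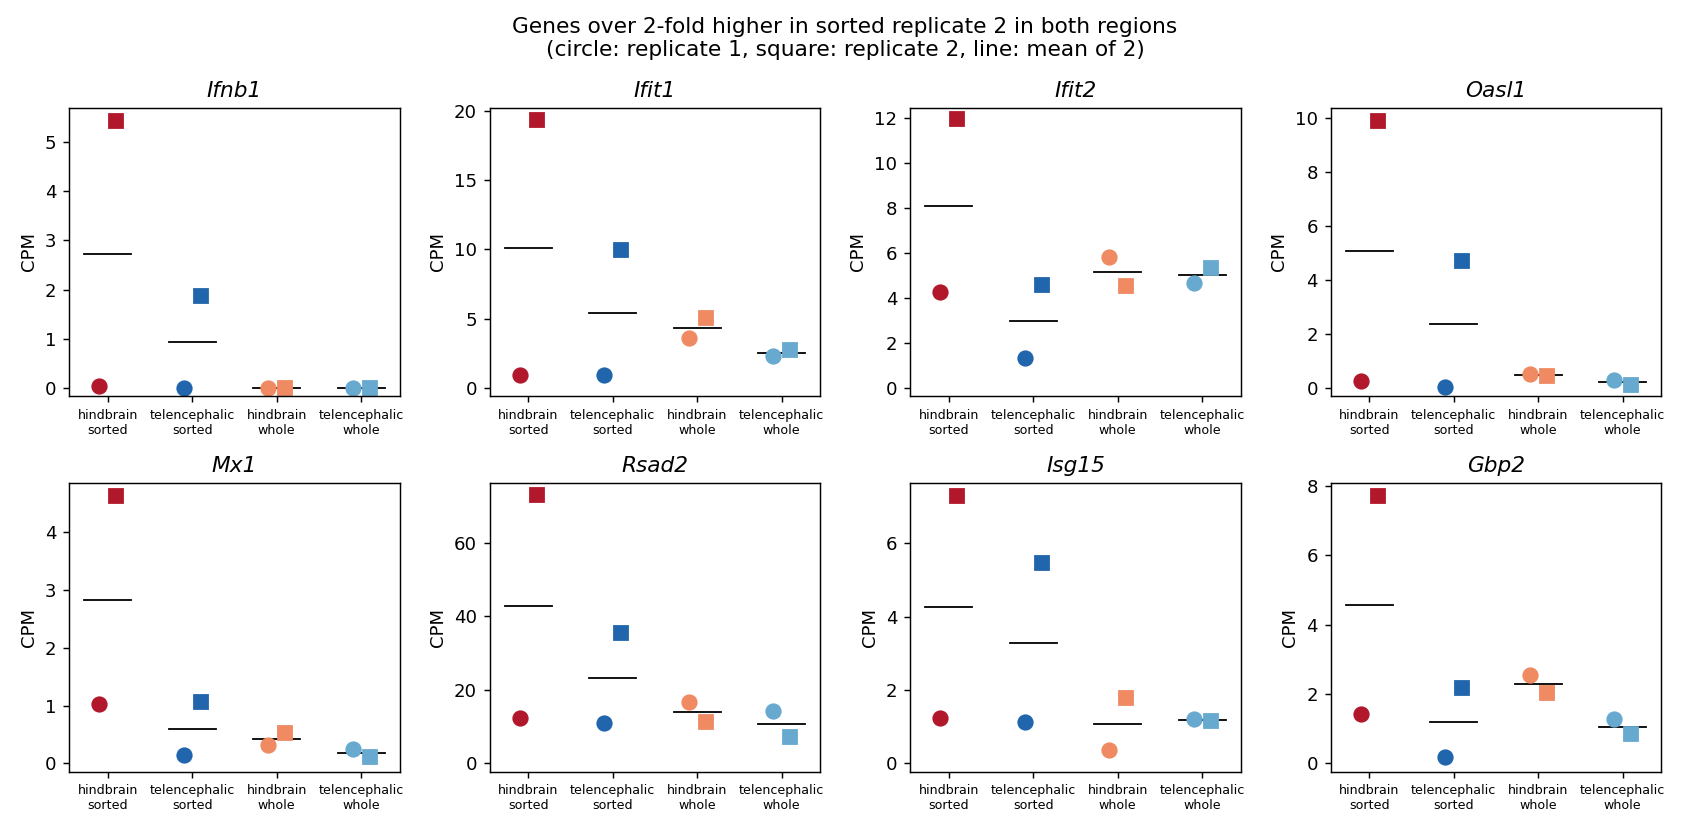
CPM of the 8 genes more than 2-fold higher in sorted replicate 2 of both regions is plotted for every library, 1 panel a gene, with circles for replicate 1, squares for replicate 2 and a line at the mean of the 2. In each panel the square of the hindbrain sorted group is the highest point, as for Rsad2 at 73.0 CPM, and all 4 whole-tissue points of Ifnb1 are at 0.

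Over all 34 genes, the median log2 difference of replicate 2 over replicate 1 was 0.49 in hindbrain sorted and 0.58 in telencephalic sorted cells, against 0.00 over all tested genes in both. In whole tissue the medians over the 34 genes were 0.09 in hindbrain and 0.08 in telencephalic samples. Hindbrain whole tissue had 1 gene of the set more than 2-fold higher and 1 lower in replicate 2 (0.255% and 0.535% of all tested genes), and telencephalic whole tissue had none (0.631% and 0.325%). In sorted cells the difference was above 0 for 26 of 34 genes in hindbrain and 27 of 34 in telencephalic libraries. Most of the other genes were thus higher in replicate 2 by less than 2-fold on the log2(CPM + 0.5) scale. Ifi44 was the 1 gene of the set more than 2-fold lower in hindbrain sorted replicate 2 (1.89% of all genes were), and none was in telencephalic sorted replicate 2 (0.866% of all genes were).

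**Figure D2:**
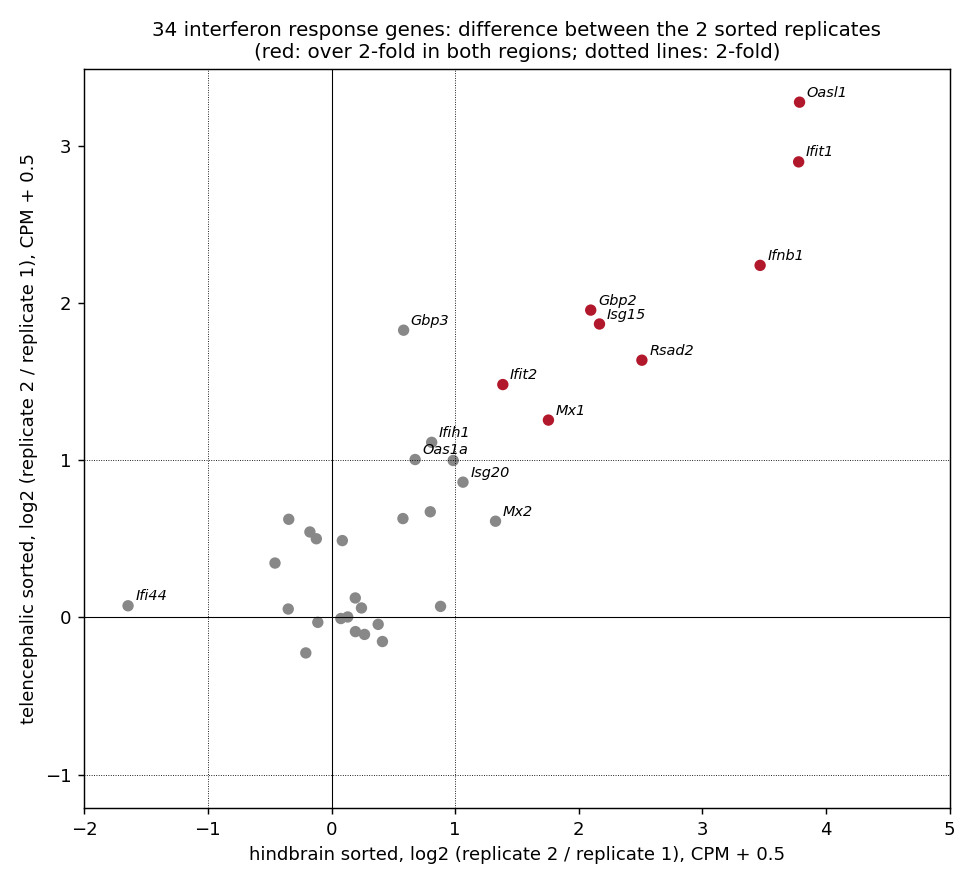
Each point is 1 of the 34 genes, placed by its log2 ratio of sorted replicate 2 over replicate 1 (CPM + 0.5) in hindbrain cells (x axis) and in telencephalic cells (y axis), with dotted lines at 2-fold. The 8 red points lie above 1 on both axes, up to 3.79 for Oasl1 in hindbrain cells, and Ifi44 lies farthest to the left.

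Cxcl10, Ccl5 and Tnf, inflammatory genes outside the set, showed the same library pattern. They were also chosen after values were seen, and other interferon-induced genes outside the set went the other way. Irgm2 was at 17.2 and 10.7 CPM in hindbrain sorted and 2.57 and 1.86 CPM in telencephalic sorted libraries. Gbp9 was at 15.9 and 9.65 CPM in hindbrain sorted and 3.59 and 2.98 CPM in telencephalic sorted libraries. Cxcl10, a chemokine induced by interferon, was at 4.55 and 51.9 CPM in hindbrain sorted, 0.794 and 19.7 CPM in telencephalic sorted and at most 0.142 CPM in whole-tissue libraries. Ccl5, another chemokine, was at 0.145 and 11.6 CPM in hindbrain sorted and 0 and 3.04 CPM in telencephalic sorted libraries. Tnf, the cytokine tumour necrosis factor, was at 3.20 and 25.3 CPM in hindbrain sorted and 0.151 and 4.77 CPM in telencephalic sorted libraries. Macrophage markers summed to 261 and 212 CPM in hindbrain sorted and 44.6 and 68.4 CPM in telencephalic sorted libraries, so their sum was lower in replicate 2 in hindbrain and higher in telencephalic cells. Ribosomal RNA (Rn45s) was at 63015 and 121314 CPM in hindbrain sorted and 166640.0 and 133958 CPM in telencephalic sorted libraries, so it was higher in replicate 2 in one region and lower in the other. The part of any of these in the replicate difference was not tested.

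Hindbrain against telencephalic plexus was compared first in sorted cells, where 7 of the 34 genes were called (20.6%, against 15.2% of all tested genes). Higher in hindbrain cells were Oasl2, Trim25, Ifitm3, Irf1, Oas2 and Dhx58, and Bst2 was lower. The 6 higher genes are 17.6% of the set, and 9.06% of all tested genes were called higher; the 1 lower gene is 2.94%, against 6.12% of all genes. The median log2 difference over the 34 genes was 0.88, against -0.00 over all tested genes, and the fitted difference was above 0 for 31 of 34. In both replicate pairs of brains the hindbrain library was the higher one for 24 of 34 genes (70.6%), against 32% of all tested genes. The number called was 13 without hindbrain sorted replicate 1 (13.3% of all genes), 13 without telencephalic sorted replicate 2 (9.47%) and 3 without telencephalic sorted replicate 1 (6.5%).

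Oasl2, an oligoadenylate synthetase-like protein, had 8.55 and 6.09 CPM in hindbrain sorted libraries, against 0.869 and 1.24 CPM in telencephalic sorted libraries. Both hindbrain libraries were several-fold above both telencephalic ones, with a log2 difference of 2.82 ± 0.30 (adjusted p = 4.78e-05). Oas2, a synthetase of the oligoadenylates that activate RNase L, had 2.15 and 3.45 CPM in hindbrain sorted libraries, against 0.265 and 0.682 CPM in telencephalic sorted libraries. Its log2 difference was 2.63 ± 0.55 (adjusted p = 0.0067), and the groups did not overlap. Without telencephalic sorted replicate 1 the adjusted p was 0.0848.

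Irf1, a transcription factor that drives interferon and interferon-induced genes, had 13.1 and 24.6 CPM in hindbrain sorted libraries, against 7.18 and 7.56 CPM in telencephalic sorted libraries. The hindbrain replicates differed between themselves but both lay above the telencephalic ones, with a log2 difference of 1.36 ± 0.27 (adjusted p = 0.00443, and 0.0541 without telencephalic sorted replicate 1). Without hindbrain sorted replicate 2 the difference was 0.83 (adjusted p = 0.0184), and without both sorted libraries of number 2 it was 0.87 (adjusted p = 0.0267). Dhx58, the RNA sensor LGP2, had 2.00 and 1.47 CPM in hindbrain sorted libraries, against 0.227 and 0.620 CPM in telencephalic sorted libraries, a log2 difference of 2.10 ± 0.59 (adjusted p = 0.0302). This call was lost without any 1 of 6 libraries: the adjusted p was 0.0552, 0.057, 0.0547 and 0.0569 without hindbrain whole replicates 1 and 2 and telencephalic whole replicates 1 and 2, 0.0732 without hindbrain sorted replicate 1 and 0.251 without telencephalic sorted replicate 1. With the 4 sorted libraries alone it was 0.0816.

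Ifitm3, a membrane protein that blocks fusion of viruses with endosomes, had 37.6 and 43.0 CPM in hindbrain sorted libraries, against 19.8 and 18.54 CPM in telencephalic sorted libraries. The replicates of each region lay close together, and the log2 difference was 1.07 ± 0.17 (adjusted p = 0.000988). Trim25, the ubiquitin ligase that activates RIG-I, had 32.8 and 34.6 CPM in hindbrain sorted libraries, against 18.4 and 18.4 CPM in telencephalic sorted libraries. Its replicates were as close, with a log2 difference of 0.87 ± 0.13 (adjusted p = 0.000636). Bst2, or tetherin, which holds budding virus at the cell surface, ran the other way, with 8.84 and 11.9 CPM in hindbrain sorted libraries, against 20.3 and 18.2 CPM in telencephalic sorted libraries. Its log2 difference was -0.89 ± 0.20 (adjusted p = 0.00864, and 0.0828 without telencephalic sorted replicate 1).

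With the brain as a block, which compares the regions within each brain, 15 of the 34 genes were called in sorted cells (44.1%, against 18.7% of all tested genes), 14 of them higher in hindbrain (41.2%, against 10.9%). The 7 genes above were all called again, and Ifit2, Ifit3, Mx1, Mx2, Rsad2, Gbp2, Gbp3 and Parp14 were added. Of these, Ifit2, Mx1, Rsad2 and Gbp2 are also among the genes more than 2-fold higher in replicate 2 of both regions. Rsad2, with 12.4 and 73.0 CPM in hindbrain sorted against 11.1 and 35.6 CPM in telencephalic sorted libraries, had an adjusted p of 0.404 without the block and 0.0379 with it. Without the block its log2 difference was 0.89 ± 0.64, which turned to -0.89 without hindbrain sorted replicate 2. Ifit2 had an adjusted p of 0.0737 without the block and 0.00149 with it. For Gbp2 the values were 0.129 and 0.00232, and for Parp14, a mono-ADP-ribosyl transferase, 0.0553 and 0.00521. Without both sorted libraries of number 2, 14 genes were called (19% of all genes), 13 of them higher (10.4%), and without both of number 1, 10 were (9.38%). The lone library of each group was then assumed to vary like the other groups. Dhx58 (1.23, adjusted p = 0.268) and Bst2 (adjusted p = 0.132) were not called without number 1.

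Markers of several other cell types, but not of all those listed, moved with region in the sorted cells. All 15 macrophage markers were called higher in hindbrain sorted cells, with sums of 261 and 212 CPM in hindbrain sorted against 44.6 and 68.4 CPM in telencephalic sorted libraries, and none was at 0 in any library. The 10 mesenchymal markers summed to 1794 and 1372 CPM in hindbrain sorted against 841 and 873 CPM in telencephalic sorted libraries, with 8 of 9 tested called higher, and Dpt was at 0 in replicate 1 of both sorted groups. The 10 mural markers summed to 295 and 265 CPM in hindbrain sorted against 76.7 and 69.7 CPM in telencephalic sorted libraries, with 8 of 10 called higher. Of 12 endothelial markers 5 were called higher and 1 lower, and of 12 immediate early and heat shock genes 10 were called higher, with sums of 1519 and 1635 CPM in hindbrain sorted against 883 and 930 CPM in telencephalic sorted libraries. The 9 tested neutrophil, 5 tested erythroid and 2 tested lymphoid and dendritic cell markers gave no call. Of 7 tested neuronal markers 1 was called higher and 2 lower. The part of these lists in the differences of the interferon response genes was not tested. In a bulk library, fewer cells of a type and less RNA per cell cannot be told apart.

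**Figure D3:**
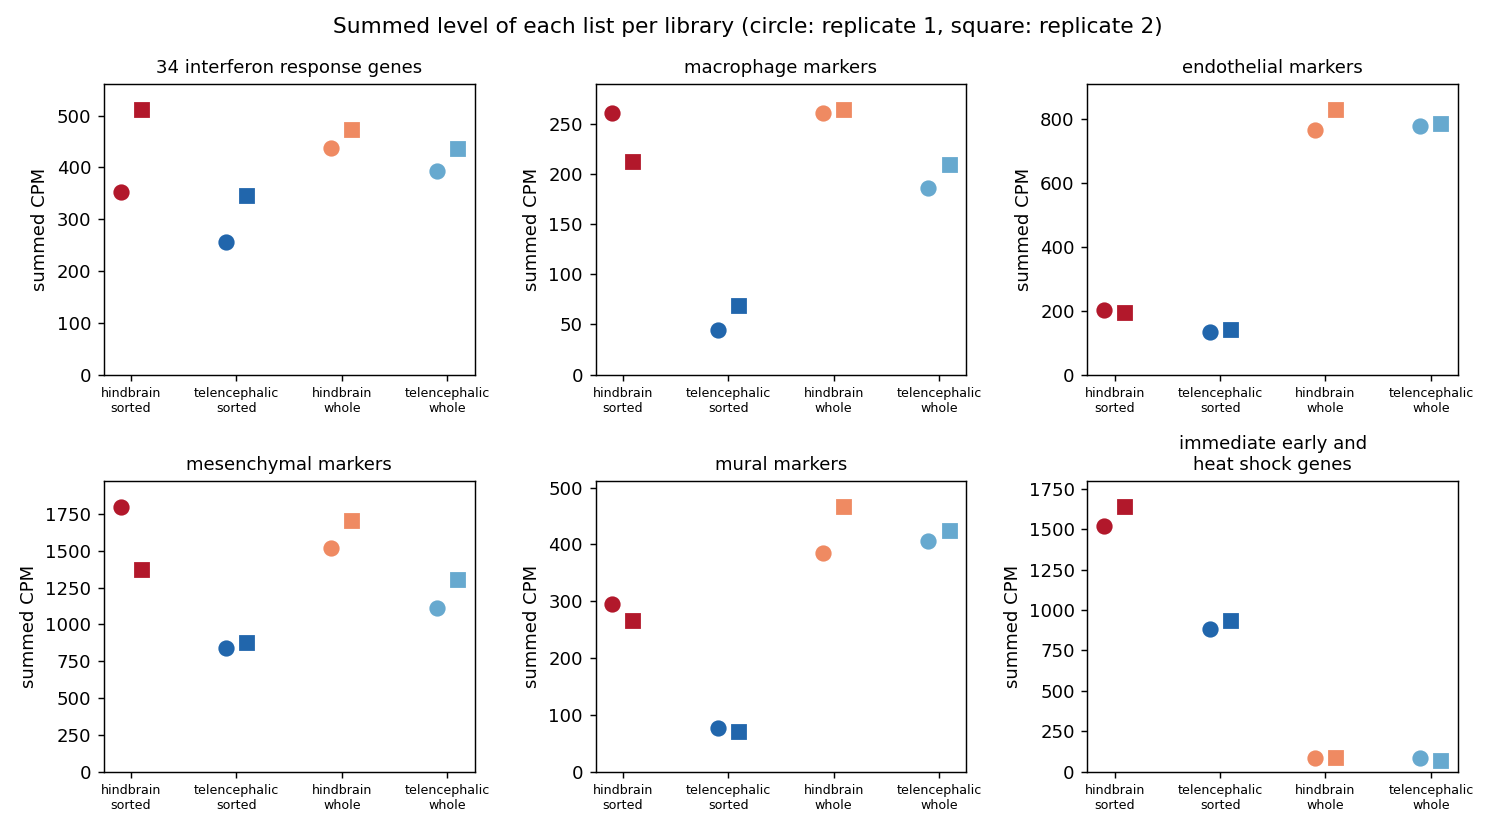
Summed CPM of the 34 interferon response genes, of macrophage, endothelial, mesenchymal and mural markers and of immediate early and heat shock genes is plotted per library, 1 panel a list, each axis starting at 0, with circles for replicate 1 and squares for replicate 2. Macrophage markers sum to 44.6 and 68.4 CPM in telencephalic sorted libraries and to at least 186 CPM in the other 6, while immediate early and heat shock genes sum to at least 883 CPM in every sorted library and at most 87.5 CPM in whole tissue.

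In whole tissue, hindbrain and telencephalic plexus differed in 2 of the 34 genes, Oasl2 higher and Ddx58 lower in hindbrain. That is 5.88% of the set, against 5.79% of all tested genes, of which 3.34% were higher and 2.45% lower. Oasl2 had 11.4 and 12.5 CPM in hindbrain whole libraries, against 4.77 and 5.97 CPM in telencephalic whole libraries. The groups did not overlap, and the log2 difference was 1.17 ± 0.26 (adjusted p = 0.0189). Ddx58, the RNA sensor RIG-I, had 31.6 and 31.5 CPM in hindbrain whole libraries, against 44.1 and 44.5 CPM in telencephalic whole libraries. Its replicates were nearly equal within each region, and the log2 difference was small, at -0.49 ± 0.13 (adjusted p = 0.0488). In sorted cells Ddx58 had 30.7 and 35.2 CPM in hindbrain and 32.1 and 35.0 CPM in telencephalic libraries. Oas2 and Bst2, called in sorted cells, were not called in whole tissue (adjusted p = 0.464 and 0.0866). Oas2 had 1.29 and 1.37 CPM in hindbrain whole against 0.550 and 0.838 CPM in telencephalic whole libraries. Bst2 had 11.9 and 10.8 CPM against 15.8 and 20.1 CPM in the same groups, lower in hindbrain as in sorted cells.

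Both whole-tissue calls were lost without any 1 of the 4 whole libraries. Of all genes, 3.48% and 2.93% were then called without hindbrain whole replicates 1 and 2, and 1.94% and 2.33% without telencephalic whole replicates 1 and 2. The set had 1 call without telencephalic sorted replicate 1 (5.08% of all genes) and 1 without telencephalic sorted replicate 2 (5.01%). For Oasl2 the adjusted p was 0.0742 and 0.142 without hindbrain whole replicates 1 and 2 and 0.27 and 0.0899 without telencephalic whole replicates 1 and 2. For Ddx58 the values were 0.185, 0.232, 0.288 and 0.269 without the same libraries, and 0.072 and 0.0736 without telencephalic sorted replicates 1 and 2. With the brain as a block, 3 genes were called (8.82% of the set, against 7.61% of all tested genes), and Isg20 was the added one. Isg20, an exonuclease that degrades RNA, had 6.85 and 7.36 CPM in hindbrain whole libraries, against 2.08 and 3.98 CPM in telencephalic whole libraries. The log2 difference was 1.26 ± 0.60 (adjusted p = 0.32) without the block and 1.30 ± 0.35 (adjusted p = 0.0407) with it.

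Small differences of 1 sign were common in whole tissue. Of the 34 genes, 17 had both hindbrain whole libraries above both telencephalic whole ones (50% of the set, against 26.8% of all tested genes) and 2 had them below (5.88%, against 24.8%). In sorted cells 14 were above (41.2%, against 26.1%) and 1 was below (2.94%, against 25.8%). In both whole-tissue pairs of brains the hindbrain library was the higher one for 24 of 34 genes, as many as in sorted cells. That is 70.6% of the set, against 35.5% of all tested genes. The median log2 difference over the set in whole tissue was 0.25, against 0.01 over all tested genes. Macrophage markers summed to 261 and 264 CPM in hindbrain whole against 186 and 209 CPM in telencephalic whole libraries, with 1 of 15 called higher. Mesenchymal markers summed to 1521 and 1701 CPM in hindbrain whole against 1112 and 1300 CPM in telencephalic whole libraries, with 4 of 9 tested called higher. Neutrophil markers summed to 78.0 and 58.5 CPM in hindbrain whole against 3.12 and 3.25 CPM in telencephalic whole libraries, with 9 of 9 tested called higher. Neuronal markers summed to 65.2 and 64.8 CPM in hindbrain whole against 25.4 and 19.7 CPM in telencephalic whole libraries, with 2 of 7 tested called higher. The part of these lists was not tested.

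**Figure D4:**
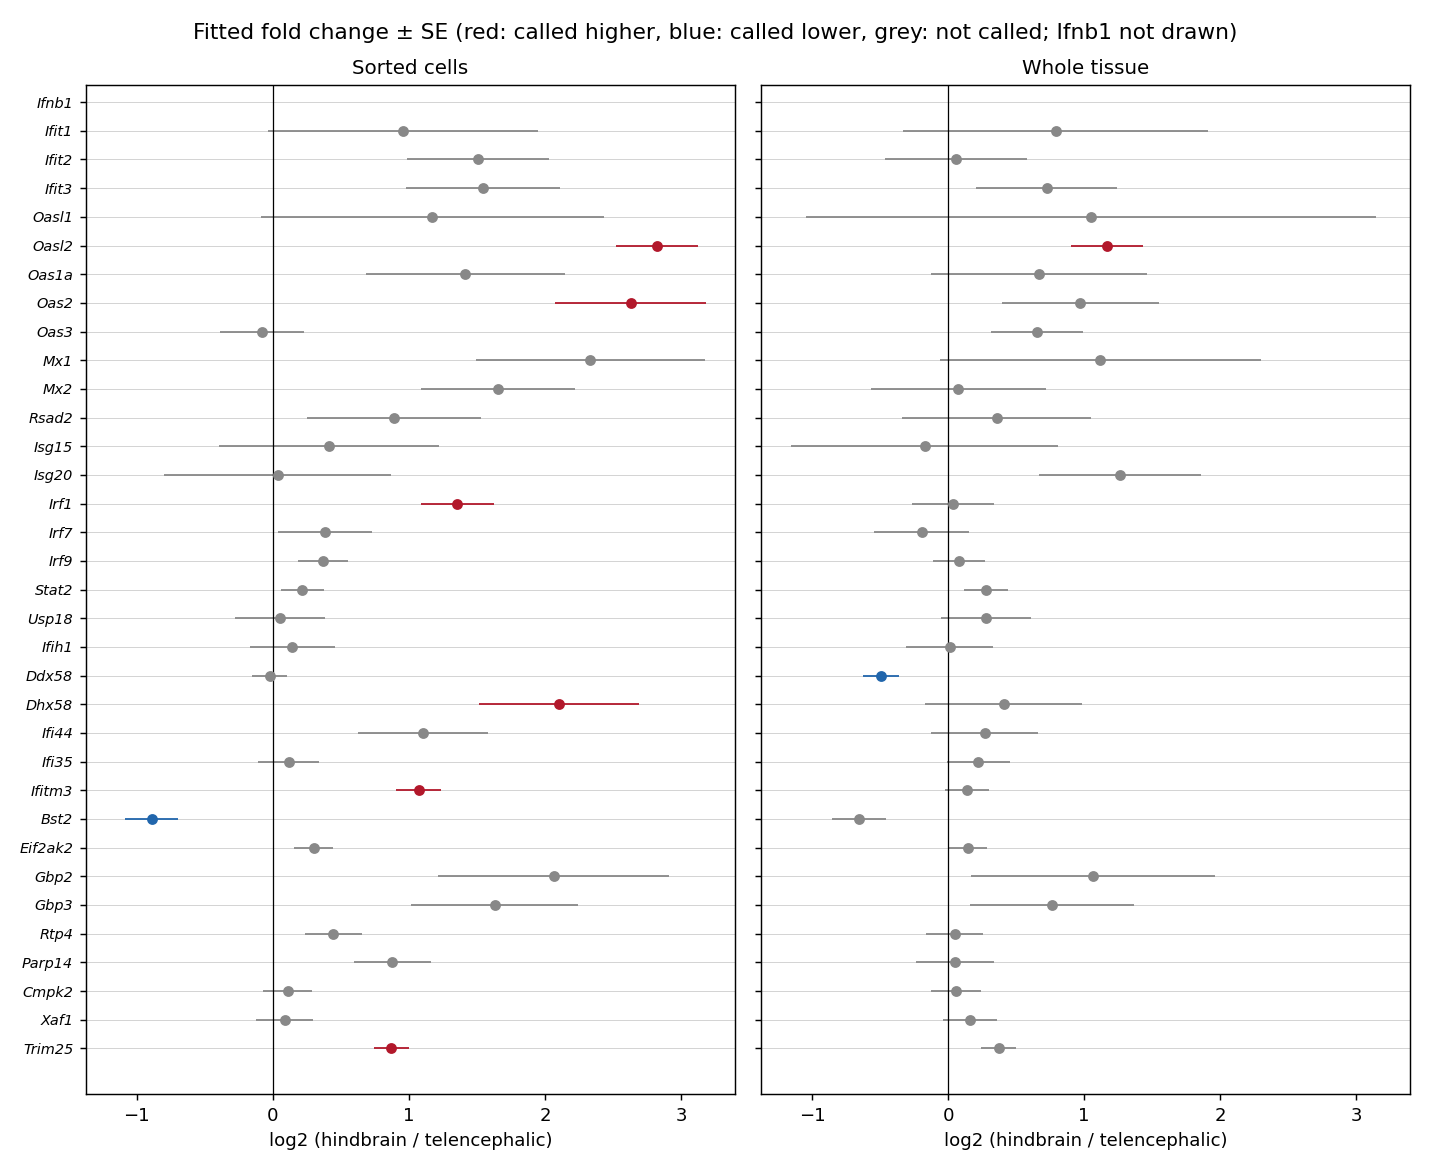
Log2 differences of hindbrain minus telencephalic plexus with their standard errors are plotted per gene, for sorted cells and for whole tissue, with calls in red (higher) or blue (lower), other genes in grey and Ifnb1 not drawn. Oasl2 is the gene called in both, at 2.82 in sorted cells and 1.17 in whole tissue, and Bst2 and Ddx58 are the called genes left of 0.

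Whether the regional difference itself depended on the preparation was tested as an interaction. None of the 34 genes was called by edgeR's quasi-likelihood test, against 1.34% of all tested genes. At an unadjusted p under 0.05 there were 5 of the 34, against 1481 of all 15698 tested genes. DESeq2 called 2, Ifitm3 and Oasl2 (2.27% of all genes). With the brain as a block 1 was called (2.15% of all genes), Ifitm3, at a log2 difference of differences of 0.91 (adjusted p = 0.0269), against 0.93 ± 0.23 (adjusted p = 0.0924) without it. The count was also 1 without hindbrain sorted replicate 1 (Irf1, with 1.5% of all genes called) and without hindbrain sorted replicate 2 (Oasl2, with 2.94%).

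Sorted cells were next compared with whole tissue of the same region. In telencephalic samples 8 of the 34 genes were called, all lower in sorted cells: Ifitm3, Trim25, Oasl2, Ifi44, Xaf1, Isg20, Rtp4 and Ddx58. They are 23.5% of the set, against 22.4% of all tested genes called, 12.5% lower and 9.88% higher. In hindbrain samples 8 were called as well (22.1% of all genes), 5 lower (Xaf1, Isg20, Ifi44, Trim25 and Ifitm3) and 3 higher (Irf1, Mx2 and Mx1). The 5 lower genes are 14.7% of the set, against 11.9% of all tested genes, and the 3 higher genes are 8.82%, against 10.2%. The median log2 difference over the set was -0.31 in telencephalic and 0.06 in hindbrain samples, against 0.01 over all tested genes in each. With library totals as the scale, the hindbrain median was -0.14, against -0.19 over all tested genes.

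These counts varied with the libraries in the fit. Without both sorted libraries of number 2, telencephalic samples had 2 genes higher and 15 lower in sorted cells (10.9% and 13.5% of all genes), and hindbrain samples had 1 higher and 8 lower (11% and 13.8%). Without both of number 1, telencephalic samples had 7 higher and 6 lower (8.31% and 11.3% of all genes), and hindbrain samples had 12 higher and 5 lower (12.6% and 14.3%). In telencephalic samples 5 genes were called without telencephalic whole replicate 2 (10.1% of all genes) and 5 without telencephalic sorted replicate 1 (10.8%). In hindbrain samples 5 were called without hindbrain whole replicate 2 (10.4%) and 13 without hindbrain sorted replicate 1 (24.1%).

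Ifi44, a protein strongly induced by interferon, had 7.49 and 2.05 CPM in hindbrain sorted against 22.7 and 30.1 CPM in hindbrain whole libraries. In telencephalic samples it had 2.15 and 2.29 CPM in sorted against 17.0 and 27.2 CPM in whole libraries. All 4 sorted libraries lay below all 4 whole ones, with log2 differences of -2.47 ± 0.42 in hindbrain (adjusted p = 0.0015) and -3.30 ± 0.47 in telencephalic samples (adjusted p = 0.000368). Xaf1, which binds the apoptosis inhibitor XIAP, had 5.89 and 7.19 CPM in hindbrain sorted against 15.9 and 20.9 CPM in hindbrain whole libraries. In telencephalic samples it had 6.39 and 5.89 CPM in sorted against 15.2 and 17.8 CPM in whole libraries. It was evenly low in the 4 sorted libraries, with log2 differences of -1.49 ± 0.20 in hindbrain (adjusted p = 0.000301) and -1.42 ± 0.21 in telencephalic samples (adjusted p = 0.000505).

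Isg20 had 0.0727 and 0.697 CPM in hindbrain sorted against 6.85 and 7.36 CPM in hindbrain whole libraries. In telencephalic samples it had 0.151 and 0.682 CPM in sorted against 2.08 and 3.98 CPM in whole libraries. It was below 1 CPM in every sorted library, with log2 differences of -4.19 ± 0.69 in hindbrain (adjusted p = 0.00123) and -2.96 ± 0.75 in telencephalic samples (adjusted p = 0.0144). The telencephalic call did not hold when telencephalic whole replicate 2 (adjusted p = 0.113) or telencephalic sorted replicate 1 (0.135) was left out. Without hindbrain sorted replicate 2 the hindbrain difference was -6.49 (adjusted p = 0.000167), a fitted value that rests on the 2 counts of the remaining sorted library.

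Ifitm3 had 37.6 and 43.0 CPM in hindbrain sorted against 59.4 and 65.4 CPM in hindbrain whole libraries, and in telencephalic samples 19.8 and 18.54 CPM in sorted against 46.8 and 67.2 CPM in whole libraries. Its log2 difference was -0.63 ± 0.16 in hindbrain (adjusted p = 0.0154) and -1.56 ± 0.17 in telencephalic samples (adjusted p = 4.46e-05). The hindbrain call did not hold when hindbrain whole replicate 2 (adjusted p = 0.093) or hindbrain sorted replicate 1 (0.0541) was left out, nor without both sorted libraries of number 1 (0.0626). Trim25 had 32.8 and 34.6 CPM in hindbrain sorted against 48.8 and 54.5 CPM in hindbrain whole libraries, and in telencephalic samples 18.4 and 18.4 CPM in sorted against 39.9 and 39.8 CPM in whole libraries. The replicates were close in all 4 groups, and the log2 difference was -0.62 ± 0.13 in hindbrain (adjusted p = 0.0045) and -1.12 ± 0.13 in telencephalic samples (adjusted p = 8.37e-05).

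Oasl2 was lower in telencephalic sorted cells, with 0.869 and 1.24 CPM in sorted against 4.77 and 5.97 CPM in whole libraries, a log2 difference of -2.36 ± 0.31 (adjusted p = 0.000214). In hindbrain samples it was not called, at a log2 difference of -0.71 ± 0.25 (adjusted p = 0.0575). Rtp4, a transmembrane protein chaperone, and Ddx58 were the telencephalic calls nearest to the threshold. Rtp4 had 5.86 and 8.49 CPM in telencephalic sorted against 11.4 and 11.7 CPM in telencephalic whole libraries, a log2 difference of -0.70 ± 0.22 (adjusted p = 0.0341). Ddx58 had 32.1 and 35.0 CPM in telencephalic sorted against 44.1 and 44.5 CPM in telencephalic whole libraries, a log2 difference of -0.40 ± 0.13 (adjusted p = 0.0446). Leaving out 1 library ended the Rtp4 call for 5 of the 8 libraries: hindbrain whole replicates 1 (adjusted p = 0.0507) and 2 (0.0509), telencephalic whole replicates 1 (0.154) and 2 (0.151) and telencephalic sorted replicate 1 (0.259, at a log2 difference of -0.45). For Ddx58 it did so for 6: hindbrain whole replicates 1 (0.0608) and 2 (0.0615), telencephalic whole replicates 1 (0.19) and 2 (0.184) and telencephalic sorted replicates 1 (0.235) and 2 (0.0954).

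Irf1, Mx1 and Mx2 were the genes higher in hindbrain sorted cells than in whole tissue. Irf1 had 13.1 and 24.6 CPM in hindbrain sorted against 4.27 and 4.91 CPM in hindbrain whole libraries, a log2 difference of 2.04 ± 0.28 (adjusted p = 0.000297). In telencephalic samples it had 7.18 and 7.56 CPM in sorted against 4.52 and 4.40 CPM in whole libraries, a log2 difference of 0.72 ± 0.29 that was not called (adjusted p = 0.1). All 4 sorted libraries were above all whole ones, and the difference of these differences was not called (adjusted p = 0.208).

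Mx1 and Mx2 encode dynamin-like GTPases that trap viral components. Mx1 had 1.02 and 4.62 CPM in hindbrain sorted against 0.322 and 0.519 CPM in hindbrain whole libraries, and 0.151 and 1.05 CPM in telencephalic sorted against 0.245 and 0.105 CPM in telencephalic whole libraries. The hindbrain log2 difference was 2.74 ± 0.85 (adjusted p = 0.0368). Mx2 had 2.80 and 7.78 CPM in hindbrain sorted against 1.89 and 0.613 CPM in hindbrain whole libraries, and 1.25 and 2.17 CPM in telencephalic sorted against 1.41 and 0.943 CPM in telencephalic whole libraries. Its hindbrain log2 difference was 2.05 ± 0.57 (adjusted p = 0.0225). Both groups were apart in hindbrain samples, with sorted replicate 2 well above sorted replicate 1. The Mx1 call was lost without hindbrain sorted replicate 2 (log2 difference 1.28, adjusted p = 0.311), hindbrain whole replicates 1 (0.185) and 2 (0.119), telencephalic whole replicates 1 (0.0606) and 2 (0.0614), and without both sorted libraries of number 2 (0.162). The Mx2 call was lost without hindbrain sorted replicate 2 (log2 difference 1.13, adjusted p = 0.165), without hindbrain whole replicate 2 (0.162), without both sorted libraries of number 2 (0.127) and in the 4 hindbrain libraries alone (0.0507), and its difference was 3.09 without hindbrain whole replicate 1 (adjusted p = 0.0172).

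**Figure D5:**
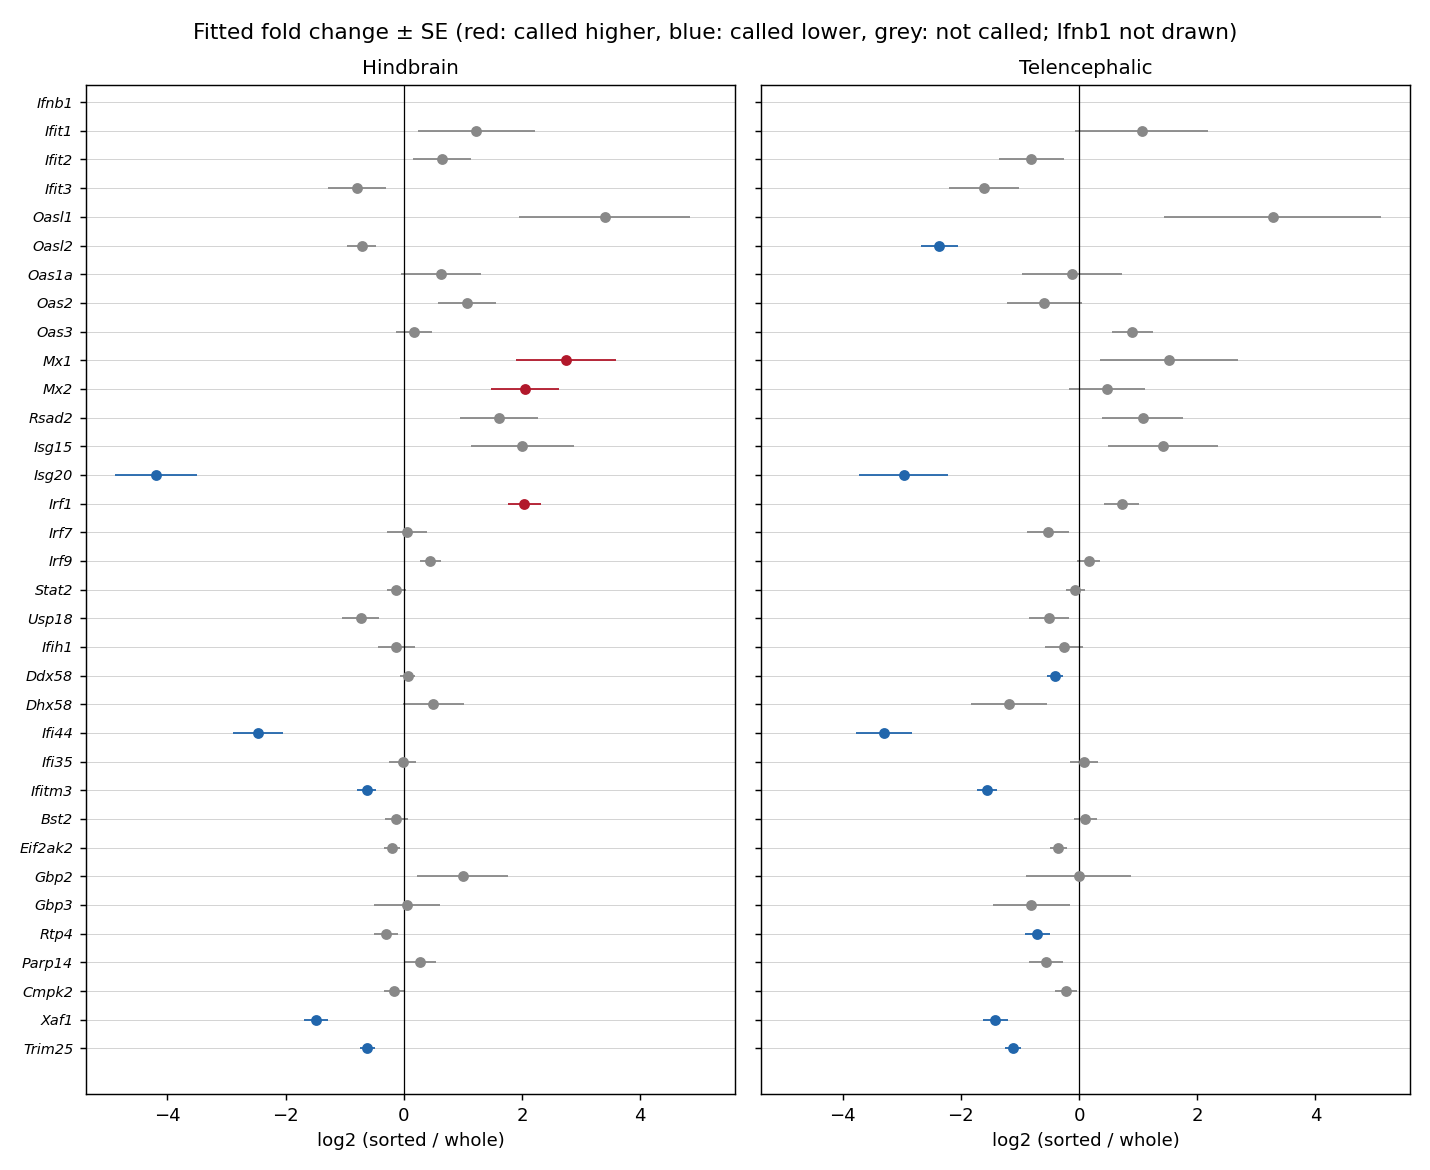
Log2 differences of sorted cells minus whole tissue with their standard errors are plotted per gene, for hindbrain and for telencephalic samples, with calls in red (higher) or blue (lower) and other genes in grey. Ifnb1 is not drawn, as it had no read in whole tissue. Isg20, Ifi44, Xaf1, Trim25 and Ifitm3 are called left of 0 in both regions, and Irf1, Mx1 and Mx2 are called right of 0 in hindbrain samples.

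Counting libraries that did not overlap, 10 of the 34 genes had both hindbrain sorted libraries below both hindbrain whole ones (29.4%, against 29.9% of all tested genes) and 7 had them above (20.6%, against 29.8%). In telencephalic samples 15 were below (44.1%, against 32.6%) and 3 were above (8.82%, against 33.7%). Endothelial markers were lower in sorted cells than in whole tissue in both regions, with all 12 of 12 called lower. Their sums were 203 and 194 CPM in hindbrain sorted against 767 and 829 CPM in hindbrain whole libraries. Cldn5, a tight junction protein of endothelium, was at 0 in replicate 1 of both sorted groups. In telencephalic samples the endothelial sums were 133 and 138 CPM in sorted against 778 and 787 CPM in whole libraries. Macrophage markers were called lower for 13 of 15 in telencephalic and 2 of 15 in hindbrain samples. Mural markers were called lower for 5 of 10 in hindbrain and 9 of 10 in telencephalic samples, where their sums were 76.7 and 69.7 CPM in sorted against 405 and 424 CPM in whole libraries. Of 9 tested mesenchymal markers, 1 was called higher in hindbrain and 6 were called lower in telencephalic samples. Neutrophil markers were called lower for 9 of 9 in hindbrain samples, with sums of 15.9 and 9.61 CPM in sorted against 78.0 and 58.5 CPM in whole libraries, and higher for 4 of 9 in telencephalic samples, with sums of 17.7 and 5.89 CPM in sorted against 3.12 and 3.25 CPM in whole libraries. Neuronal markers were called lower for 6 of 7 in hindbrain and 4 of 7 in telencephalic samples, and erythroid markers for 4 of 5 in hindbrain and 2 of 5 in telencephalic samples. Immediate early and heat shock genes were called higher in sorted cells for 12 of 12 in hindbrain and 11 of 12 in telencephalic samples, with sums of 1519 and 1635 CPM in hindbrain sorted against 87.5 and 84.8 CPM in hindbrain whole libraries. The part of these cell types and genes in the set's differences was not tested.

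The set's signalling genes between receptor and promoter were called in none of the 5 comparisons. Stat2, which carries the receptor's signal to the nucleus, was at 17.6 and 20.9 CPM in hindbrain sorted, 16.2 and 16.9 CPM in telencephalic sorted, 20.7 and 21.3 CPM in hindbrain whole and 16.6 and 18.1 CPM in telencephalic whole libraries. Irf9, the DNA-binding member of the Stat2 complex, was at 17.7 and 16.4 CPM in hindbrain sorted, 13.4 and 13.1 CPM in telencephalic sorted, 11.2 and 13.8 CPM in hindbrain whole and 10.5 and 13.4 CPM in telencephalic whole libraries. Irf7, which amplifies interferon production, was at 3.42 and 2.97 CPM in hindbrain sorted, 1.93 and 3.04 CPM in telencephalic sorted, 3.55 and 2.60 CPM in hindbrain whole and 3.85 and 3.14 CPM in telencephalic whole libraries. The lowest and highest of the 8 libraries were less than 2-fold apart for Stat2 and Irf9, and a p that misses the threshold does not show equal levels.

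Of the remaining genes, Eif2ak2, the kinase PKR that halts translation on double-stranded RNA, had the most reads over all libraries (10157). It was at 67.6 and 52.9 CPM in hindbrain sorted, 48.1 and 49.9 CPM in telencephalic sorted, 62.9 and 75.4 CPM in hindbrain whole and 62.7 and 62.3 CPM in telencephalic whole libraries, and was called in no comparison. Its smallest adjusted p was 0.0997, for telencephalic sorted against whole. Ifih1, the RNA sensor MDA5, was at 16.8 and 29.9 CPM in hindbrain sorted, 13.3 and 29.4 CPM in telencephalic sorted, 24.1 and 27.0 CPM in hindbrain whole and 23.8 and 27.0 CPM in telencephalic whole libraries. Sorted replicate 2 was the higher one in both regions, above every whole-tissue library, and no group difference was called.

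Parp14 was at 10.8 and 19.2 CPM in hindbrain sorted, 6.27 and 10.3 CPM in telencephalic sorted, 13.6 and 11.3 CPM in hindbrain whole and 12.1 and 11.9 CPM in telencephalic whole libraries, again with replicate 2 the higher sorted one. Gbp3, a relative of Gbp2, was at 3.16 and 4.99 CPM in hindbrain sorted, 0.340 and 2.48 CPM in telencephalic sorted, 3.30 and 4.58 CPM in hindbrain whole and 2.14 and 2.51 CPM in telencephalic whole libraries. Ifit3, a partner of Ifit1, was at 1.24 and 2.93 CPM in hindbrain sorted, 0.340 and 1.18 CPM in telencephalic sorted, 3.51 and 3.73 CPM in hindbrain whole and 2.26 and 2.10 CPM in telencephalic whole libraries. Unlike those of Ifit1, all 4 sorted libraries of Ifit3 lay below the whole libraries of their own region.

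The last 5 genes are given by their range. Usp18, the protease that removes Isg15 and dampens the receptor, lay between 2.00 and 3.83 CPM over the 8 libraries. Cmpk2, a nucleotide kinase encoded beside Rsad2, lay between 14.2 and 21.6 CPM. Ifi35 lay between 6.18 and 8.18 CPM, Oas3 between 1.65 and 3.86 CPM and Oas1a between 0.151 and 1.58 CPM. In the fit without a block, 14 of the 34 genes were called in at least 1 of the 5 comparisons and 20 in none. From 1.34% to 22.4% of all tested genes were called in a single comparison. The share of all tested genes called in at least 1 was not counted, so the 14 cannot be judged against it. Of the 20 genes called in none, Ifit2, Ifit3, Rsad2, Gbp2, Gbp3 and Parp14 were called between regions in sorted cells with the brain as a block.

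The receptor and its kinases, from a list of 10 genes outside the set, were read throughout. Ifnar1 was at 82.7 and 86.1 CPM in hindbrain sorted, 83.7 and 84.8 CPM in telencephalic sorted, 76.2 and 90.7 CPM in hindbrain whole and 83.3 and 97.0 CPM in telencephalic whole libraries. Ifnar2 was at 67.6 and 77.4 CPM in hindbrain sorted, 82.1 and 91.8 CPM in telencephalic sorted, 64.9 and 69.5 CPM in hindbrain whole and 87.5 and 87.8 CPM in telencephalic whole libraries. Neither receptor chain was called in any comparison. Of the genes reported here, Jak1 was higher in hindbrain than in telencephalic sorted cells (log2 difference 0.56, adjusted p = 0.0207). In whole tissue 0 of 10 were called between regions, and the most read, Jak1 and Ifnar1, had log2 differences of 0.09 (adjusted p = 0.848) and -0.11 (adjusted p = 0.763). Against whole tissue, Jak1 (-0.54) and Ifngr2, a chain of the interferon gamma receptor (-0.47), were lower in telencephalic sorted cells. In hindbrain sorted cells Ifngr2 was lower (-0.55) and Jak2, the gamma receptor's kinase, was higher (0.47).

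Of 18 sensors of pathogens and their adaptors, 8 were called higher and none lower in hindbrain than in telencephalic sorted cells, where 9.06% of all tested genes were called higher and 6.12% lower. Those with the smallest adjusted p were Tlr7, a receptor for single-stranded RNA (2.43, adjusted p = 0.00183), Zc3hav1, which binds viral RNA (1.91, adjusted p = 0.00436), Tlr4, the endotoxin receptor (1.95, adjusted p = 0.00464), and Tlr3, a receptor for double-stranded RNA (0.87, adjusted p = 0.00723). In whole tissue none was called between regions, and the most read, Traf3 and Tbk1, had log2 differences of -0.25 and -0.19. Against telencephalic whole tissue 1 was higher and 5 were lower in sorted cells (9.88% and 12.5% of all tested genes). Among the lower ones were Tlr4 (-2.06), Tlr7 (-2.23) and Zc3hav1 (-1.65). Irf3, the factor that first activates Ifnb1, was the 1 sensor-list gene higher in sorted cells, by 0.77 in hindbrain and 0.59 in telencephalic samples (log2). Tlr4 and Tlr7 are known in macrophages, whose marker sums moved the same way, as given above, and that part was not tested.

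Feedback genes of the pathway gave 1 call of 10 between regions in sorted cells (15.2% of all tested genes) and none in whole tissue (5.79%). Against whole tissue, 2 were higher and 1 lower in sorted cells of each region, where 10.2% and 11.9% of all tested genes were in hindbrain and 9.88% and 12.5% in telencephalic samples. Tnfaip3, or A20, which turns off inflammatory signalling, was higher in hindbrain sorted cells (1.62, adjusted p = 0.00595). Tnfaip3 was also higher in sorted cells than in whole tissue, by 3.15 in hindbrain and 1.61 in telencephalic samples (log2). Socs3, which inhibits Jak kinases, was higher by 2.06 in hindbrain and 1.34 in telencephalic samples. Rnaseh2b, a subunit of the enzyme that removes ribonucleotides from DNA, was lower, at -0.61 in hindbrain and -0.69 in telencephalic samples. In whole tissue the most read, Pias1 and Samhd1, had regional log2 differences of 0.02 and 0.08.

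A further 42 tested interferon-induced genes outside the set gave 16 higher and 1 lower between regions in sorted cells, where 9.06% of all tested genes were higher and 6.12% lower. The 4 with the smallest adjusted p were Lgals9, encoding galectin-9 (2.81, adjusted p = 9.45e-06), the immunity-related GTPases Irgm2 (2.62, adjusted p = 2.93e-05) and Igtp (2.59, adjusted p = 7.5e-05), and Samd9l, an antiviral factor (2.50, adjusted p = 9.94e-05). In whole tissue Irgm2 (1.68, adjusted p = 0.00108) and Igtp (1.59, adjusted p = 0.00345) were the 2 called, both higher in hindbrain (3.34% of all tested genes). In the interaction 2 were called (1.34% of all tested genes), Lgals9 (2.48, adjusted p = 0.00216) and Samd9l (1.90, adjusted p = 0.0291), whose hindbrain over telencephalic difference was larger in sorted cells than in whole tissue. Against whole tissue, 4 were higher and 6 lower in hindbrain sorted cells (10.2% and 11.9% of all tested genes), and 4 higher and 13 lower in telencephalic sorted cells (9.88% and 12.5%). Ly6e, a surface protein, had the smallest adjusted p in both and was higher in sorted cells, by 3.44 in hindbrain and 4.15 in telencephalic samples (log2), while Lgals9 was lower, at -1.34 in hindbrain and -3.82 in telencephalic samples.

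Of 14 antigen presentation genes, which interferon also raises, 1 was called between regions in whole tissue (5.79% of all tested genes) and 2 in sorted cells (15.2%). In whole tissue it was Cd74, the invariant chain of class II molecules (1.59, adjusted p = 0.0366). In sorted cells Cd74 was higher (1.90, adjusted p = 0.0135) and Tapbp, a peptide loading factor, lower in hindbrain (-0.60, adjusted p = 0.0232). Against whole tissue, the class I genes H2-K1 and H2-D1 were higher in sorted cells, by 1.51 and 0.85 in hindbrain and by 1.32 and 0.78 in telencephalic samples. Cd74 was lower, at -1.41 in hindbrain and -1.72 in telencephalic samples, and so was Psme1, a proteasome activator subunit, at -0.77 in hindbrain and -0.77 in telencephalic samples. Class I genes share sequence with close relatives, so the counting may have split or dropped some of their reads; the same holds for the Oas, Ifit, Gbp and Mx families.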

How the data were processed

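The deposited table gives whole-number counts of reads per gene for 8 libraries, which the authors made from pre-amplified cDNA (Ovation RNA-seq V2, then TruSeq v2), per the labels' protocols. The tools listed in the submitters' processing notes, with no role given, are HTSeq, TopHat2 2.0.4, Bowtie2 2.0.5, DESeq and CASAVA 1.8.2, and the build listed is mm9. For the annotation, strand setting and counter's version, nothing is given in those sources. Library totals ran from 8849053 to 31613434 counts, and floors and limits cover counting error only, since reads carried no molecular identifiers. No pair of replicate libraries agreed within sampling noise.

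Counts were analysed with edgeR 4.0.16 (R 4.3.3): genes were kept by filterByExpr (minimum count 10, minimum total 15), scaled by TMM and fitted with 4 group means over all 8 libraries. Comparisons used its quasi-likelihood test, with Benjamini-Hochberg adjusted p-values over 15698 genes and a threshold of 0.05. The labels call the replicates biological; where they share embryos or a preparation day, p-values measure only the spread between these samples. Folds of region compare hindbrain with telencephalic samples, and the 4 comparisons share groups. Alternatives were other scalings, DESeq2 1.42.0, other filters, a replicate block, single libraries left out and, added after seeing the data, both sorted libraries of 1 number left out.

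The series' design text states that both regions of a replicate came from the same brains. The correlation of same-numbered libraries' deviations between regions over 15698 genes was 0.259 in whole tissue and 0.157 in sorted cells. The brain block rests on the design text, since such a correlation cannot by itself show shared brains. On data simulated for the sorted regional comparison over 15445 genes, 61.6% of 2-fold and 89% of 4-fold changes were called, and 5.66% of calls were false. The simulated replicates were independent draws with no shared brain and no other group differences, so these rates need not hold for the real libraries.

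The 34 genes and all lists were chosen with earlier results of these data known. Genes with values in every library were Ifnb1, those called between regions, up to 6 called genes per direction between preparations, the 3 with the most reads and those with no read in a whole-tissue group. Others were chosen after their values were seen. Of other lists up to 4 called genes per comparison were named by adjusted p, or the 2 with the most reads where none was called. Of the further list of interferon-induced genes, 46 of 48 symbols were in the table and 42 were tested. Promoter windows come from RefSeq (GRCm38.p6), a build other than the files', and no coordinate was taken from the files. Of the receptor and kinase list, 1 gene is not reported here.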

Additional observations from a re-analysis of the deposited data

Results flagged for a closer look

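Oas3, an oligoadenylate synthetase, showed opposite regional signs in the preparations, and that opposition itself was not tested by the signs alone. It had 3.64 and 3.08 CPM in hindbrain sorted against 3.86 and 3.22 CPM in telencephalic sorted libraries, so it was slightly lower in hindbrain in both sorted brains. It had 2.86 and 3.11 CPM in hindbrain whole against 1.65 and 2.20 CPM in telencephalic whole libraries, so it was higher in hindbrain in both whole-tissue brains. The difference of the regional differences, tested as an interaction with edgeR's quasi-likelihood test, was -0.73 (log2, adjusted p = 0.716).

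Dhx58, the RNA sensor LGP2, showed opposite signs of sorted against whole in the 2 regions. It had 2.00 and 1.47 CPM in hindbrain sorted against 1.13 and 1.32 CPM in hindbrain whole libraries, with both sorted libraries higher. In telencephalic samples it had 0.227 and 0.620 CPM in sorted against 0.734 and 1.15 CPM in whole libraries, with both sorted libraries lower. The same interaction was 1.69 (log2, adjusted p = 0.567), so the opposition is not shown to exceed the spread between replicates.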

How the results depend on the processing

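The count of the 34 genes called was 2 between regions in whole tissue, 7 between regions in sorted cells, 8 for sorted against whole in telencephalic and in hindbrain samples, and 0 in the interaction. Each percent below is the share of all tested genes called under the same setting. In whole tissue the count was 1 with DESeq2 size factors (5.78%), library totals (5.54%) or totals without Ttr and Rn45s (5.73%) as the scale. It was 4 with the 4 libraries alone (10.6%) or with both sorted libraries of number 2 (9.54%) or of number 1 (9.57%) left out. In sorted cells it was 12 with library totals (18%), 15 with no filter on low counts (14.7%), 15 with the brain block (18.7%) and 14 without number 2 (19%). Sorted against whole gave 17 without number 2 (24.4%) and 13 without number 1 (19.6%) in telencephalic samples, and 13 with no filter (20%) and 17 without number 1 (26.9%) in hindbrain samples. In the interaction it was 1 with library totals (1.62%), 2 with DESeq2 (2.27%), 3 with no filter (2.24%), 1 with the brain block (2.15%) and 1 without number 2 (3.16%) or number 1 (1.24%); the genes called were Ifitm3, Oasl2 and Irf1. Leaving out 1 library gave 0 to 3 in whole tissue, 3 to 13 in sorted cells, 5 to 12 and 5 to 13 for sorted against whole in telencephalic and hindbrain samples, and 0 to 1 in the interaction. The regional Rsad2 difference in sorted cells, 0.89, turned to -0.89 (adjusted p = 0.254) without hindbrain sorted replicate 2 and was at most 1.94 when another library was left out. The cause of these changes was not tested, except that leaving libraries out also leaves fewer samples. A lone library was then assumed to vary like the other groups. With 1 library left out, the share of all tested genes called changed too. In sorted cells the set's count rose in some of these fits while that share fell. In whole tissue and for sorted against whole, the largest share of all genes came with the largest count of the set. In sorted cells the largest share did not, but the smallest share came with the smallest count.

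With the replicate number as a block, which for sorted against whole pairs different brains, 10 genes were called in telencephalic (22.4%) and 10 in hindbrain samples (22.2%). Library totals as the scale shifted the median log2 difference of all tested genes to 0.20 in the regional comparison of sorted cells, -0.30 and -0.19 for sorted against whole in telencephalic and hindbrain samples and 0.12 in the interaction. DESeq2 called 2 between regions in whole tissue (6.8%), 10 between regions in sorted cells (15.9%), and 8 for sorted against whole in telencephalic (22.7%) and in hindbrain samples (21.5%). With 2 libraries a group, the spread of each gene rests on few samples, and a gene below 1 CPM rests on few reads.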
